A study of Glycine max with 2 samples.

Results

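Among the genes with a differentially methylated region (DMR) between the soybean lines NJCMS5A and NJCMS5B were 39 transferase genes, of which 26 were kinase genes and 13 were other transferases. They are the genes of the term transferase activity in the deposited GO table that are not also listed for nucleic acid binding, hydrolase activity or transport, and not among 4 further genes left out by name. These 39 genes were taken from 63 genes of the term, from 334 differentially methylated genes (DMGs) with any GO annotation and from 485 DMGs in all. They carried 53 of the 600 DMRs annotated to genes and of the 3527 DMRs in the file, 38 at kinase genes and 15 at the other transferases. The choice used the GO annotation and the presence of a DMR, which in this file means a difference of at least 10 percentage points. Beyond that it did not use the direction or size of the difference.

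NJCMS5A is a cytoplasmic male sterile (CMS) soybean line, whose cytoplasm prevents functional pollen. NJCMS5B is its fertile maintainer line and was the recurrent parent in the backcrosses that made NJCMS5A. Flower buds of different sizes were pooled for each line at full bloom, and 1 whole-genome bisulfite library was made per line. Bisulfite leaves methylated cytosines and converts the others, so a methylation level is the percentage of cytosine calls still read as cytosine. The levels analysed here were not split by the CG, CHG and CHH contexts. Each line has 1 library, so biological error could not be estimated, and a difference between the lines cannot be told apart from one between the 2 pools or libraries. A pool of buds also mixes cell types and stages, so a level is an average over them. In the 53 DMRs the mean depth per cytosine was 5.80 to 15.1 (median 11.8) in NJCMS5A and 5.18 to 18.6 (median 11.1) in NJCMS5B, with 233244 and 217028 calls in all. Intervals given with levels are 95% Wilson intervals. They cover counting error only, and the cytosines of a read are not independent of each other.

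A transferase moves a chemical group from a donor to an acceptor molecule. A kinase is a transferase that moves a phosphate group, in most cases from ATP, and protein kinases switch the activity of other proteins in this way. In plants, many protein kinases are receptors at the cell surface, and mitogen-activated protein kinases (MAPKs) relay signals inside the cell. Glycosyl, methyl, acyl and prenyl transferases attach a sugar, a methyl, an acyl or a prenyl group, for example in the synthesis of flavonoids, amino acids and terpenoids.

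The study designed bisulfite PCR primers inside the DMR of 1 of the 39 genes, Glyma.03G256500, which is annotated with the transfer of hexosyl groups. This DMR lies in the promoter, the 2 kb upstream of the gene, at Chr03:45134151-45136050 in the Williams 82 genome. The primers are shown because they mark the stretch of a member's promoter that was chosen for cloning. The clones themselves were not analysed here, and the levels given for this DMR are those of the whole DMR in the libraries, not of the cloned stretch. They cover 370 bp at Chr03:45134256-45134625 and are printed 5′ to 3′ with each CG in capitals.
outer forward: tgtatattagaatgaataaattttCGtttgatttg
outer reverse: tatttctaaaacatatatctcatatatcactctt
inner forward: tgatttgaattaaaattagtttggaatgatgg
inner reverse: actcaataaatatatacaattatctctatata
The outer forward primer holds 1 CG, and the other primers hold 0. The promoter DMR had 472 cytosines. In NJCMS5A 2.17% (1.79 to 2.63) of the calls were methylated, and in NJCMS5B 12.3% (11.4 to 13.3). The difference was thus −10.1 percentage points (−11.2 to −9.11), close to the smallest difference in the file, which is 10 points. No difference under 10 points and no ratio of levels under 2 was in the file, so the sizes given below start there.

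Most of the 39 genes were less methylated in the sterile line. In 25 of them every annotated DMR was hypo-methylated, meaning lower in NJCMS5A. In 4 genes every DMR was hyper-methylated, and 10 genes had DMRs of both directions. The hypo-methylated genes made up 64.1% (48.4 to 77.3) of the 39 genes, against 57.9% of the 485 DMGs. The genes with both directions made up 25.6% (14.6 to 41.1), against 23.9% of all DMGs, and hyper-methylated genes 10.3% against 18.1%. By DMRs, 38 were hypo-methylated and 15 hyper-methylated. The hypo-methylated share was 71.7% (58.4 to 82.03), beside 64.8% of the 600 DMRs annotated to genes and 55.8% of all DMRs. Against the 64.4% of the other genes' DMRs the difference was 7.29 points with a 95% Newcombe interval of −6.53 to 18.4, which includes 0. The 15 DMRs that are annotated both to one of the 39 genes and to another gene are in both groups, here and in the other comparisons with other genes, while the interval treats the groups as separate.

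Every DMR had been called by the study on these same calls. By Fisher's exact test (two-sided) on the calls, adjusted after Benjamini-Hochberg over the whole file, 53 of the 53 DMRs passed 0.05, as did 100% of all DMRs. This test compares 2 libraries and is no independent evidence for the differences. The test was also run with each cytosine counted once in place of each call. Single cytosines were not scored for this. The level of each line was kept and applied to the number of cytosines in the DMR, with rounding to whole cytosines. This setting thus tests the same levels on smaller counts. In it 45 of 53 passed, beside 92.5% of the 600 DMRs annotated to genes and 82.8% of all DMRs. The 8 that no longer passed all had fewer than 100 cytosines.

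The sizes of the differences were modest. The median was 12.1 points over the 53 DMRs, 13.2 over the DMRs of other genes and 16.7 over all DMRs, and 15 of the 53 differed by at most 11 points. A difference of at least 20 points was found in 7 hypo-methylated DMRs and in 0 hyper-methylated DMRs. In 23 of the 38 hypo-methylated DMRs the level in the NJCMS5A library, over the CG, CHG and CHH contexts together, was under 5%. In 9 of the 15 hyper-methylated DMRs the same held for NJCMS5B. These shares were 60.5% and 60.0%, against 52.8% and 51.5% for other genes, and both intervals of the difference included 0.

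Kinase genes and the other transferases did not differ detectably in direction. Of the kinase DMRs, 27 of 38 (71.1%, 55.2 to 83.0) were hypo-methylated, and of the other transferases' DMRs 11 of 15 (73.3%, 48.1 to 89.1). The difference was −2.28 points, with an interval of −24.6 to 25.7 that leaves room for sizeable differences either way. By gene, 16 kinase genes were hypo-methylated, 2 hyper-methylated and 8 had both directions. Among the other transferases the counts were 9, 2 and 2. Genes with both directions thus made up 30.8% of the kinases and 15.4% of the others, a difference of 15.4 points (−15.0 to 37.6). The median size of the difference was 12.99 points for kinase DMRs and 11.1 points for the others. On chromosomes these medians were 11.5 and 10.3 points, and on scaffolds 13.6 and 13.4 points.

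**Figure D1:**
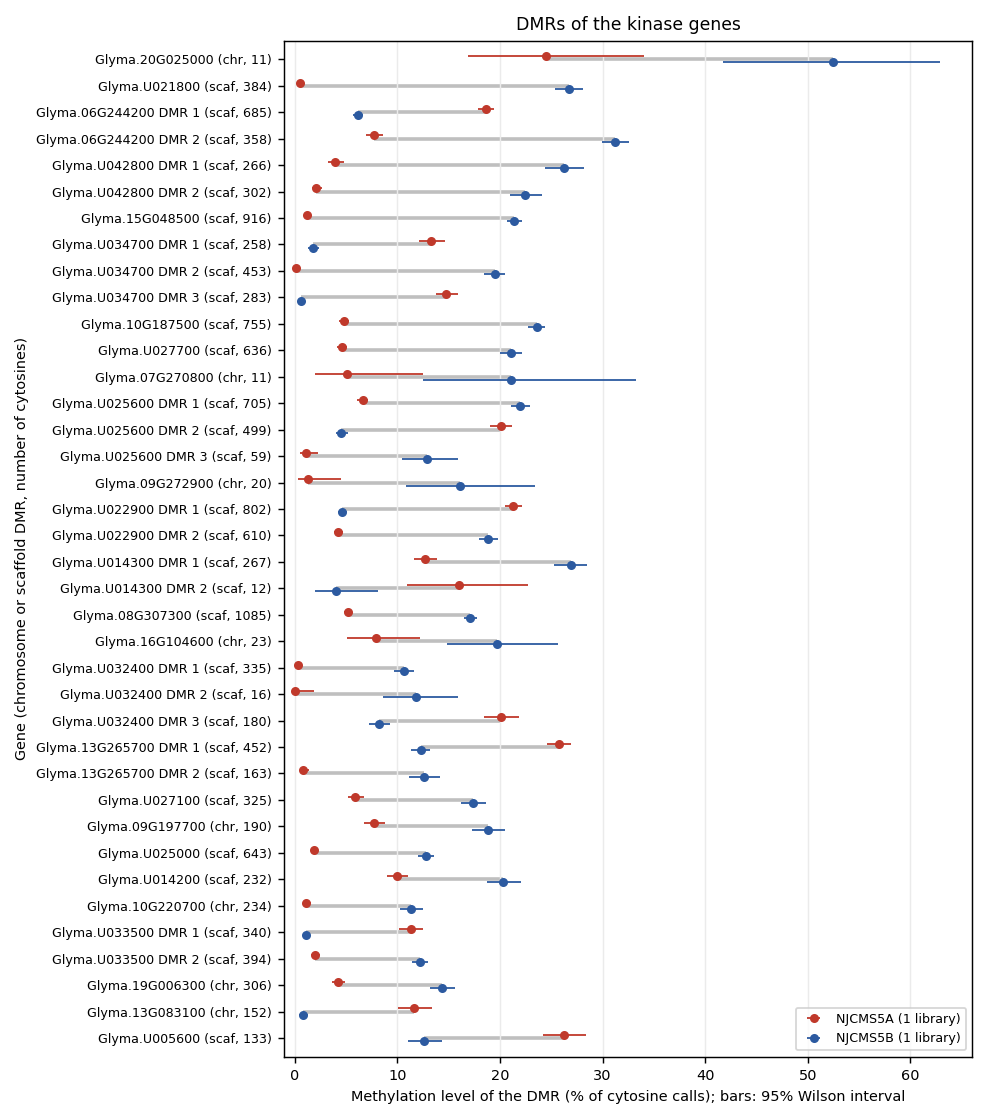
Methylation level in percent of cytosine calls (x axis) for the 38 DMRs of the 26 kinase genes (y axis, with chromosome or scaffold and the number of cytosines), red for NJCMS5A and blue for NJCMS5B, 1 library each, with 95% Wilson intervals as bars. NJCMS5B lies to the right in 27 DMRs, and the wide bars belong to the DMRs with few cytosines.

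The largest decrease at a well-covered member DMR was in the promoter of a MAPK gene. Glyma.U021800 is named mitogen-activated protein kinase 3 in the study's annotation. Its promoter DMR (scaffold_21:3505003-3507507) held 384 cytosines. In NJCMS5A 22 of 4554 calls were methylated, 0.483% (0.319 to 0.730), and in NJCMS5B 1142 of 4275 calls, 26.7% (25.4 to 28.1). The promoter was almost unmethylated in the sterile line's library, and the difference was −26.2 points (−27.6 to −24.9).

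Glyma.U034700, named as a member of the protein kinase superfamily, is listed in 80 KEGG pathways, the same 80 as Glyma.U021800. It had 3 DMRs on scaffold_32 that alternated in direction. The DMR over its exons, intron and 3′UTR was higher in NJCMS5A, with 13.3% against 1.78% in NJCMS5B. The next, from intron to promoter, had 0.169% (0.0858 to 0.334) against 19.5% (18.5 to 20.5), a difference of −19.3 points. Upstream of it, 2 bp further, a promoter DMR had 14.8% against 0.595%. In each of the 3 DMRs 1 line was therefore below 2% and the other above 13%. Pooled over all 994 cytosines, the levels were 8.63% and 10.05%, a difference of −1.42 points (−2.16 to −0.682).

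Glyma.15G048500, a protein kinase gene listed for plant-pathogen interaction, had 1 DMR (scaffold_32:195720-199514) of 916 cytosines. NJCMS5A had a level of 1.23% (1.04 to 1.44) and NJCMS5B of 21.4% (20.7 to 22.2). The difference of −20.2 points was close to that at the intron-to-promoter DMR of Glyma.U034700 on the same scaffold. The DMR is annotated to the 3′UTR of this gene, although the gene's name places it on another sequence, and it is also annotated to Glyma.U034500.

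The protein kinase gene Glyma.13G083100, named putative protein kinase 1 and listed for the cell cycle, was hyper-methylated. Its DMR (Chr13:19284482-19285580, 152 cytosines) spans promoter, 5′UTR and exon. NJCMS5A had 11.6% (10.1 to 13.3) and NJCMS5B 0.783% (0.467 to 1.31), a difference of 10.8 points (9.24 to 12.6). The other hyper-methylated kinase gene was Glyma.U005600, with 26.2% against 12.6% in a promoter DMR of 133 cytosines. This was the highest level in NJCMS5A among the 53 DMRs.

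The term recognition of pollen was looked up after the values were seen. It holds 3 DMGs, all 3 of them hypo-methylated, as were 57.9% of all DMGs, and Glyma.U042800 and Glyma.08G307300 are among the 39 genes. Glyma.U042800 had 2 DMRs, both lower in NJCMS5A. The DMR of promoter and exon had 3.96% against 26.3%, and the intron DMR 2.12% against 22.5%. Over both, the difference was −21.2 points (−22.5 to −19.9), the largest decrease among the genes with more than 1 DMR. Depth in NJCMS5B was 7.47 and 9.13 there, below the median. In Glyma.08G307300 a DMR of 1085 cytosines had 5.18% against 17.1%, and it is annotated to UTRs of this gene on a sequence other than the one in its name.

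Another 5 protein kinase genes, all on chromosomes, had promoter or 5′ DMRs that were lower in NJCMS5A. The DMR of Glyma.09G197700 (promoter, 5′UTR and exon, 190 cytosines) had 7.69% against 18.9%. That of Glyma.10G220700 (5′UTR and intron, 234 cytosines) had 1.13% against 11.3%. The promoter DMR of Glyma.19G006300 (306 cytosines) differed by −10.1 points. In the promoters of Glyma.09G272900 and Glyma.16G104600 the DMRs had 20 and 23 cytosines. They had 1.28% (0.352 to 4.55) against 16.2% (10.8 to 23.4), and 7.93% (5.07 to 12.2) against 19.7% (14.9 to 25.6). With each cytosine counted once, these short DMRs missed the threshold, with adjusted p by Fisher's exact test of 0.25 and 0.432. In addition, Glyma.07G270800, had an intron DMR of 11 cytosines with 5.13% (2.01 to 12.5) against 21.1% (12.5 to 33.3), where the intervals nearly meet. With each cytosine counted once its difference was −9.09 points in place of −15.9, which reflects rounding to whole cytosines, and it did not pass.

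On scaffolds, 4 more protein kinase genes had 1 hypo-methylated DMR each. Glyma.U027700 had 4.60% against 21.1% over promoter, 5′UTR and exon. Glyma.U025000 had 1.89% against 12.8% from promoter to intron, and Glyma.U027100 5.93% against 17.4% over the same features. The promoter DMR of Glyma.U014200 differed by −10.3 points.

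A histidine kinase gene and a thymidine kinase gene had 1 hypo-methylated DMR each. Glyma.20G025000 carries histidine kinase terms, a kind of kinase known from phosphorelays such as cytokinin signalling. Its promoter DMR (Chr20:2703065-2703116) had the largest difference of the 53, −27.97 points (−40.9 to −13.6). It rested on 11 cytosines, with 24.5% (16.9 to 34.1) of 94 calls against 52.4% (41.8 to 62.9) of 82 calls, and did not pass with each cytosine counted once (adjusted p = 0.406, Fisher's exact test). Glyma.10G187500 is annotated as a thymidine kinase, an enzyme that salvages a nucleoside for DNA synthesis. A DMR of 755 cytosines, annotated to its UTRs on a sequence other than its own, had 4.80% (4.36 to 5.29) against 23.6% (22.8 to 24.4).

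In 10 genes the DMRs went both ways, and in 4 of them the change of direction fell within 25 bp. In Glyma.U025600 a hypo-methylated DMR of exon and intron (6.62% against 21.99%) was followed without a gap by a hyper-methylated intron DMR (20.1% against 4.55%). A promoter DMR 7529 bp further on was again lower, with 1.11% against 12.9%. In Glyma.U033500 a DMR with 11.3% against 1.08% met one with 1.99% against 12.2% after 10 bp. In Glyma.13G265700, 20 bp separated 25.8% against 12.3% from 0.837% against 12.6%. The fourth such junction was the one in Glyma.U034700 given above. Each of these junctions joined DMRs of opposite direction. In the whole file, 358 pairs of consecutive DMRs lay within 25 bp, and 293 of them were opposite. Over all consecutive DMRs of the 39 genes, 12 of 14 pairs were opposite, beside 1700 of 2993 pairs in the file. The latter are neighbours on a sequence at any distance, not within a gene, so the 2 sets are unlike. Only regions called as DMRs enter these counts, which are given as a description.

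The other genes with both directions had wider gaps. In Glyma.U022900 a DMR of promoter, 5′UTR and exon was higher in NJCMS5A, with 21.3% (20.5 to 22.2) against 4.65% (4.24 to 5.11). This difference of 16.7 points was the largest increase among the 39 genes. A DMR 705 bp away, from exon to 3′UTR, had 4.24% against 18.9%. Glyma.06G244200 had 18.6% against 6.14% in a 3′UTR DMR and 7.77% (6.99 to 8.63) against 31.2% (29.9 to 32.6) in a 5′UTR DMR 11004 bp away. Pooled, its levels were 15.1% and 14.5%, and the interval of the difference (−0.255 to 1.46) included 0. In Glyma.U014300 a promoter DMR had 12.7% against 26.9%, and a DMR of 12 cytosines 242 bp away had 16.0% (10.99 to 22.7) against 4.07% (1.99 to 8.16). The latter did not pass with each cytosine counted once (adjusted p = 0.494, Fisher's exact test).

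Glyma.U032400, a protein kinase gene also listed for carbohydrate binding, had 2 hypo-methylated DMRs and 1 hyper-methylated DMR. The exon and intron DMR had 0.334% against 10.6%. In a promoter DMR of 16 cytosines 0 of 200 calls were methylated in NJCMS5A, which allows up to 1.5% taken as 3 calls of the total, with a Wilson upper bound of 1.89%, against 11.8% (8.597 to 15.9) in NJCMS5B. It did not pass with each cytosine counted once (adjusted p = 0.498, Fisher's exact test). The promoter DMR 200 bp further had 20.1% against 8.19%. Pooled over their DMRs, the 10 genes ranged from −12.8 points in Glyma.U014300 to 10.7 points in Glyma.U011000, so a single level per gene hid differences of more than 10 points within it.

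**Figure D2:**
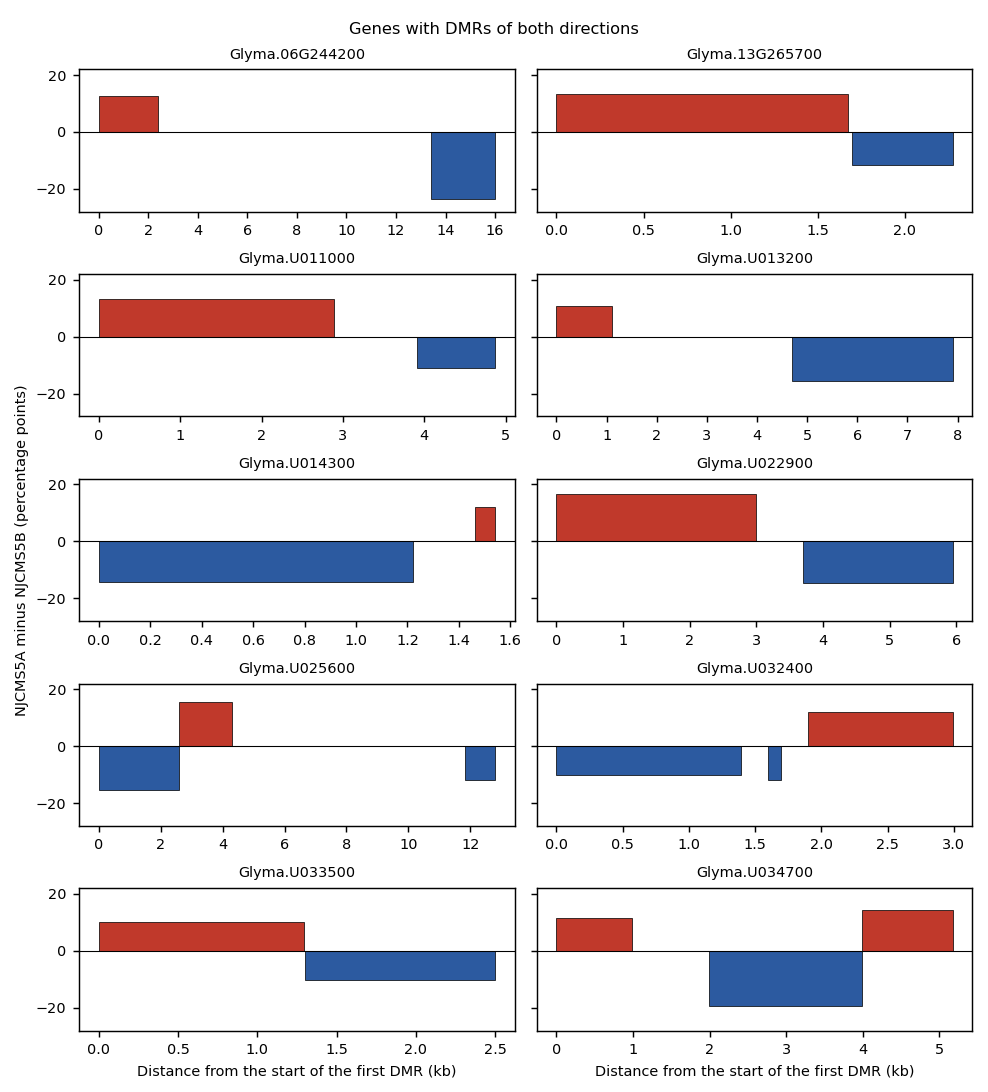
Difference of the methylation level, NJCMS5A minus NJCMS5B, in percentage points (y axis) along the 10 genes with DMRs of both directions, against the distance in kb from the start of the first DMR (x axis, scaled per gene). Each bar is 1 DMR drawn over its length, red where NJCMS5A was higher and blue where it was lower. Bars of opposite direction touch or nearly touch in Glyma.13G265700, Glyma.U025600, Glyma.U033500 and Glyma.U034700.

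All 4 glycosyl transferase genes were hypo-methylated, as were 57.9% of all DMGs and 64.1% of the 39 genes. Their differences ran from −10.04 to −21.1 points. Glyma.U001500, named UDP-glucosyl transferase 78D2 and listed for anthocyanin biosynthesis, had a DMR from promoter to intron (scaffold_111:27409-28968, 302 cytosines). NJCMS5A had 5.97% (5.18 to 6.86) and NJCMS5B 24.6% (23.1 to 26.2), a difference of −18.6 points (−20.4 to −16.9). In Arabidopsis the enzyme of this name adds glucose to flavonoids. Glyma.18G186800 had 2.74% against 12.8% in a DMR of exon and 3′UTR. It is named as an NAD(P)-binding Rossmann-fold protein while the GO table lists it for hexosyl transfer and for methylenetetrahydrofolate dehydrogenase, so its place among the glycosyl transferases rests on the table alone. Glyma.06G306000, a galactosyl transferase by its terms, had a promoter DMR of 10 cytosines with 5.17% (1.77 to 14.1) of 58 calls against 26.3% (16.7 to 38.98) of 57 calls. It did not pass with each cytosine counted once (adjusted p = 0.596, Fisher's exact test). The fourth gene is Glyma.03G256500, whose promoter values are given with the primers.

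The 3 methyl transferase genes all had promoter DMRs, as did 68.0% of all DMGs and 69.2% of the 39 genes. Glyma.07G067100 had 3.39% (2.65 to 4.34) against 14.5% (12.8 to 16.5) in a DMR of 161 cytosines (Chr07:6053338-6054134). In Glyma.U038500, 0 of 314 calls were methylated in NJCMS5A, which allows up to 0.955% by 3 calls of the total, with a Wilson upper bound of 1.21%, against 13.4% (9.40 to 18.8) in NJCMS5B. That DMR held 31 cytosines and did not pass with each counted once (adjusted p = 0.128, Fisher's exact test). Glyma.U011000 had both directions. Its promoter DMR of 769 cytosines had 18.0% against 4.73%, and 1009 bp away a DMR of promoter and intron had 0.311% against 11.3%.

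The 2 acyl transferase genes held more hyper-methylated than hypo-methylated DMRs. Glyma.U013200 carries the terms of 2-isopropylmalate synthase, the enzyme that commits carbon to leucine, and is listed in 4 KEGG pathways that include valine, leucine and isoleucine biosynthesis. An intron DMR had 12.5% against 1.79%, and a DMR from exon to 3′UTR, with 780 cytosines, had 3.04% against 18.8%. Glyma.19G241900 had 24.9% (23.4 to 26.6) against 10.6% (9.42 to 11.9) in a DMR annotated to its 5′UTR on a scaffold.

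The 2 genes that transfer alkyl or aryl groups differed in direction. Glyma.16G118100, of the undecaprenyl pyrophosphate synthetase family and listed for terpenoid backbone biosynthesis, had the longest DMR of the 53. It spans promoter, 5′UTR, exon and intron over 5497 bp (Chr16:26320056-26325552) with 1480 cytosines, and it is also annotated to 3 other genes. In NJCMS5A the level was 19.2% (18.7 to 19.8), against 7.13% (6.75 to 7.53) in NJCMS5B, a difference of 12.1 points (11.4 to 12.8). Glyma.13G097800, a prenyl transferase gene listed for the synthesis of ubiquinone and other terpenoid-quinones, had 9.97% against 20.3% in its promoter (Chr13:21297251-21298244).

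The last 2 transferases were lower in NJCMS5A. Glyma.20G076900 is annotated as a thiamine diphosphokinase, which makes the active cofactor form of vitamin B1, and is not listed under kinase activity. It had 5.62% against 15.9% in a DMR annotated to its 5′UTR. Glyma.08G305500 had 5.72% against 16.1% in its promoter (Chr08:42363309-42364599). It is listed for transaminase activity in the GO table but named fimbrin-like in the study, and fimbrins are proteins that bundle actin, so its enzyme class rests on the table alone.

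**Figure D3:**
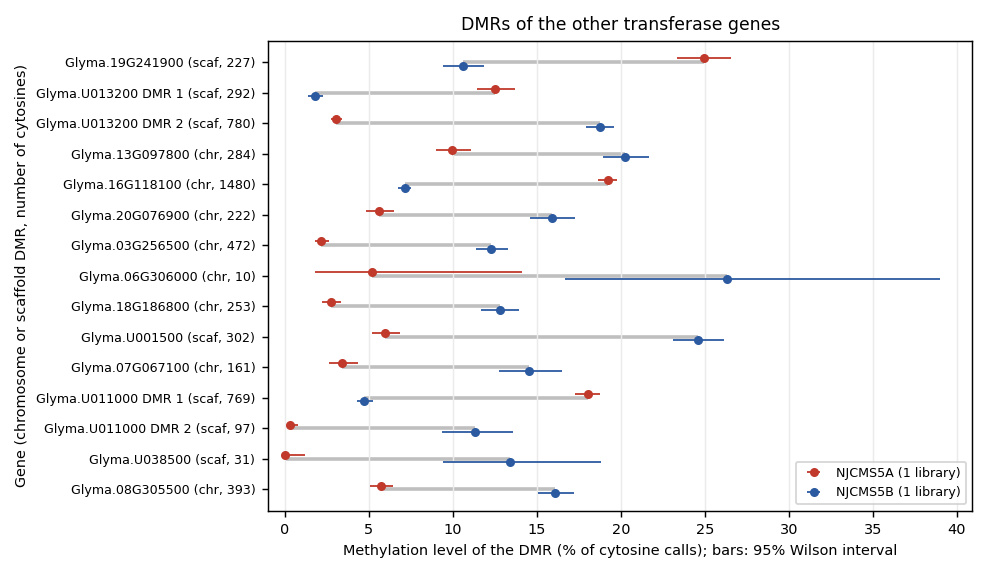
Methylation level in percent of cytosine calls (x axis) for the 15 DMRs of the 13 transferase genes that are not kinases (y axis, grouped by the group transferred), red for NJCMS5A and blue for NJCMS5B, 1 library each, with 95% Wilson intervals as bars. NJCMS5A lies to the right in 4 DMRs, those of Glyma.19G241900 and Glyma.16G118100 and 1 each of Glyma.U013200 and Glyma.U011000.

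The DMRs of kinases lay less often on chromosomes than those of the other transferases when counted by DMR, while the interval included 0 when counted by gene. On the 20 chromosomes lay 16 of the 53 DMRs and on 12 unplaced scaffolds 37, of which 12 were on scaffold_21. Of the kinase DMRs, 8 of 38 (21.1%) were on chromosomes, and of the other transferases' DMRs 8 of 15 (53.3%), a difference of −32.3 points (−56.3 to −4.48). Counted by gene, it was −30.8 points (−56.0 to 1.58), with an interval that included 0. For the 39 genes together, 30.2% of the DMRs lay on chromosomes, against 18.5% for other genes, a difference of 11.7 points (0.478 to 25.4). By gene the difference was 13 points (−1.61 to 29.0).

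Among the chromosome DMRs of the 39 genes 14 of 16 (87.5%, 63.98 to 96.5) were lower in NJCMS5A, and among the scaffold DMRs 24 of 37 (64.9%, 48.8 to 78.2), with intervals that overlap. For other genes these shares were 75% and 62.0%. All 10 genes with both directions had their DMRs on scaffolds. DMRs annotated to a promoter and to no other part of the gene were counted as pairs of gene and DMR. A DMR shared by genes can thus count more than once. Of these pairs, 15 of 19 (78.9%) were hypo-methylated, against 104 of 197 (52.8%) for other genes, a difference of 26.2 points (2.84 to 40.5). On chromosomes this was 9 of 9 against 43 of 50, and on scaffolds 6 of 10 against 61 of 147. Neither within chromosomes (14.0 points, −16.7 to 26.2) nor within scaffolds (18.5 points, −11.3 to 42.9) did the interval exclude 0. In all, 34 differences of shares were computed, and 3 of them had an interval clear of 0, without adjustment for that number. These were the 2 shares of DMRs on chromosomes and the promoter share.

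**Figure D4:**
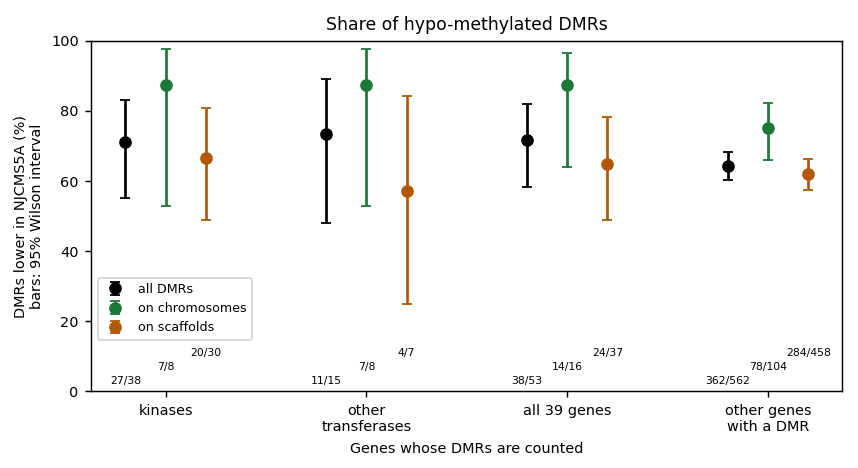
Percentage of DMRs that were lower in NJCMS5A (y axis) for kinases, other transferases, all 39 genes and other genes with a DMR (x axis), over all DMRs (black), those on chromosomes (green) and those on scaffolds (orange), with 95% Wilson intervals as bars and the counts at the base. The shares of kinases (71.1%) and other transferases (73.3%) lie within each other's interval, and the chromosome points lie above the scaffold points in every group.

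The annotation of some DMRs was not unique. Of the 39 genes, 17 have names of unplaced sequences, 15 had a DMR on the chromosome in their name, and 7 had DMRs on a sequence other than the one in their name. The latter are the kinases Glyma.06G244200, Glyma.08G307300, Glyma.10G187500, Glyma.13G265700 and Glyma.15G048500, and the transferases Glyma.19G241900 and Glyma.20G076900. Their 9 DMRs were all annotated by a UTR alone, and all 9 were also annotated to a gene of the DMR's own sequence. In total, 15 of the 53 DMRs were shared with a gene outside the 39. Without the 7 genes there were 21 hypo-methylated genes, 3 hyper-methylated genes and 8 with both directions.

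By the lists of the GO table, the 39 genes were mostly protein kinases. Of the 32 DMGs with protein kinase activity, 25 were among them, with 15 hypo-methylated, 2 hyper-methylated and 8 of both directions, beside 17, 5 and 10 of the 32 DMGs. Protein phosphorylation gave 24 of 31 DMGs (14, 2 and 8, beside 16, 5 and 10 of the 31) and ATP binding 25 of 57 DMGs (15, 2 and 8, beside 32, 9 and 16 of the 57). The membrane term held 11 of the 39 genes, with 8 hypo-methylated, 1 hyper-methylated and 2 of both directions, beside 46, 17 and 18 of its 81 DMGs. The terms for transmembrane receptor protein kinase, protein serine/threonine kinase, nucleotidyltransferase, RNA polymerase, nucleus and mitochondrion held 0 of the 39 genes. For the receptor kinase, serine/threonine kinase, nucleotidyltransferase and RNA polymerase terms this was set by the choice of genes, since all 2, 3, 10 and 6 of their DMGs carry the transferase term and were left out by the rule. It was set for the other 2 terms too. Of the 31 nucleus DMGs 1 carries the transferase term and was left out by the rule, and of the 3 mitochondrion DMGs 0 carry it. Whether any of these differences goes with the expression of the gene was not analysed here.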

How the data were processed

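Whole-genome bisulfite data of 2 libraries were used, 1 of NJCMS5A and 1 of NJCMS5B, grouped by their labels. The authors aligned reads with Bismark 0.12.5 to the Williams 82 genome and used swDMR to call DMRs, moving a window of 1000 bp by 100 bp. The depth asked for was at least 5. In the deposited DMR table the level is a fraction without correction for unconverted cytosines. The deposited coverage is the mean depth per cytosine, and the authors also gave the count of cytosines per DMR. Their annotation lists the genes of each DMR, with promoters of 2 kb. The authors' own comparison columns (ratios, differences, directions, p-values of DMRs, GO and KEGG) were not used.

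The number of methylated calls of a DMR was computed from its level, its depth and its cytosines, and came out as whole numbers within 0.01 in 3527 of 3527 DMRs. Methylated and unmethylated calls of each DMR were compared by Fisher's exact test (two-sided), with Benjamini-Hochberg adjustment over all DMRs and a threshold of 0.05. Shares carry 95% Wilson intervals and differences of shares Newcombe intervals. Values used pandas 2.3.3, scipy 1.17.1 and numpy 2.4.6 in Python 3.11.15, figures matplotlib 3.10.9, and scripts were tested on simulated data. Alternatives were a depth of at least 10 or at most 50, at least 20 points, at least 100 cytosines, chromosomes only, gene and DMR on the same sequence, Bonferroni adjustment, and each cytosine counted once. The splits within chromosomes and scaffolds, the term recognition of pollen and the setting without scaffold_21 were chosen after seeing the data.

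The members and lists were chosen with earlier results of these data known. Values in full were planned for genes with a chromosome DMR, the 5 largest increases and 5 largest decreases over DMRs of 100 or more cytosines and a depth of 10 or more, genes with both directions, and genes named by KEGG or the study. Where these groups gave too many genes, those with a chromosome DMR and the smallest differences were to be given by range only. Genes named beyond this plan, Glyma.03G256500 and those of single scaffold DMRs outside these groups among them, were added after their values were seen. Of the gene names, 0 were found in the RefSeq reference table, so names come from the GO and KEGG tables and the study.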

Additional observations from a re-analysis of the deposited data

How the results depend on the processing

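All differences rest on 1 library per line. No paired analysis was possible because each line has 1 library and the labels give no replicate numbers. Where both libraries had a depth of 10 or more, 13 genes were hypo-methylated in place of 25, 5 were hyper-methylated and 7 had both directions. In this setting 34 DMRs were left, of which 34 passed the test. Their hypo-methylated share was lower, 64.7% in place of 71.7%. It was 68% over 25 DMRs at kinases, in place of 71.1%, and 55.6% over 9 at other transferases, in place of 73.3%. With differences of at least 20 points, 6 genes were hypo-methylated, 0 hyper-methylated and 0 had both directions, so that the hypo-methylated share was 100% over the 7 DMRs left, 100% over 6 at kinases and 100% for the 1 DMR, of 10 cytosines, at other transferases, and the median difference was 22.3 points. On chromosomes only, there were 14 hypo-methylated genes, 2 hyper-methylated genes and 0 with both directions, and the hypo-methylated share was 87.5% for the 39 genes and 87.5% for kinases. Without scaffold_21, a setting chosen after seeing the data, 6 genes had both directions in place of 10. In these settings the count follows from the DMRs that remain. With each cytosine counted once 45 DMRs passed, and with Bonferroni adjustment 48. Including these, 37 values over the settings were close to the reported ones and 15 were not. Close means counts within 1.5 times and other values within 1 SD or their interval. For the hypo-methylated share of the other transferases that interval was wide (48.1 to 89.1), so 55.6% counted as close to 73.3%. Among the 37 are the values for a depth of at most 50, which removed none of the 53 DMRs and so could not change them. Counting each cytosine once keeps each level up to rounding, so no DMR could change direction in that setting.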
